A study of Mus musculus with 16 samples.

Results

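The mesothelium is the single layer of flat cells that covers the pancreas and the other organs of the peritoneal cavity. A set of 8 genes that mark these cells, of 15156 in the deposited table, was followed here across pancreas of 4 genotypes. They were chosen by name as markers of mesothelium, with earlier results of these data known. All 8 were in the table and passed the filter on low values. They encode the surface glycoproteins mesothelin (Msln) and CA125 (Muc16), the uroplakins Upk3b and Upk1b, the transcription factors Wt1 and basonuclin 1 (Bnc1), and the membrane proteins Lrrn4 and Gpm6a. Mesothelial cells make a lubricating glycocalyx, carry microvilli and stay joined as an epithelium although they arise from mesoderm. After injury they can lose these features and take on a fibroblast-like state, and in the embryo the Wt1-expressing layer gives rise to stromal cells of several organs.

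RNA sequencing covered whole pancreas from 16 mice, 4 in each genotype group, which the submitters called independent biological replicates. The animals were 6 to 10 weeks old. All 16 received caerulein, a peptide related to cholecystokinin that causes pancreatitis, at 50 ug/kg in 4 hourly injections on 3 days a week for 3 weeks, and tissue was taken 5 days after the last dose. WT mice were labelled wild type, with no Cre transgene named. DC mice were Daxx fl/fl with Pdx1-Cre Tg, MC mice were Men1 fl/fl with Pdx1-Cre Tg, and DMC mice carried Daxx fl/fl, Men1 fl/fl and Pdx1-Cre Tg. The Daxx protein deposits a variant histone on chromatin, and menin, the product of Men1, holds together a histone methyltransferase complex. Pdx1-Cre acts in acinar, duct and islet cells of the pancreas, and mesothelial cells are not of that lineage. Every comparison is therefore between genotypes in injured pancreas. The 8 genes were chosen as markers of cells outside the lineage in which the Cre acts. Which cells of these samples made the transcripts was not tested.

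The 16 libraries held 13481063 to 23728309 reads, and a count of 0 is compatible with up to 3 reads (1.84 to 5.30 normalized counts, depending on the library), a limit that covers counting error only. All values below are normalized counts, that is gene counts divided by a size factor per library, unless another scale is named. The 8 genes had between 12 reads (Bnc1 in WT replicate 1) and 1808 reads (Muc16 in DC replicate 1) in a library. Men1 was lower in both groups with its floxed alleles, with means of 132 in MC and 168 in DMC against 368 in WT (limma adjusted p = 6.16e-05 and 0.000713). Daxx, with 223 in DC and 182 in DMC against 263 in WT, did not pass the test (limma adjusted p = 0.683 and 0.193). The tissue label was checked against 6 acinar markers, which summed to between 2146090 and 8212480 normalized counts in every library.

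A single library stood apart for these genes. DC replicate 1 had the highest value of the 16 libraries for all 8 genes, at 1.23 times (Bnc1) to 2.43 times (Upk1b) the next highest library. It also had the highest level of the 16 for the fibroblast and stellate cell markers, the lowest for the acinar markers, and it was the only DC library with abundant Y-linked transcripts, which were abundant in 2 libraries of each other group. The main comparisons with DC are also given without it, while group means include it. The other 3 DC libraries averaged 104 for Msln, 301 for Muc16, 238 for Upk3b, 46.9 for Upk1b, 152 for Wt1, 26.7 for Bnc1, 117 for Lrrn4 and 183 for Gpm6a.

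Promoter sequences show what the genes have and do not have in common at their starts. Windows of the 250 bases before the start site were matched in the RefSeq promoter table for GRCm38.p6 for 5 of the 8 genes, the others being Msln, Upk1b and Wt1. Each is printed 5′ to 3′ on the strand of the gene, and the capitals mark matches to the motifs searched. Those were GGAATG (TEAD factors), GGGCGG (the GC box), TATAAA (the TATA box), and GCGTGGGCG or GCGGGGGCG (the zinc finger site of WT1 and EGR1), each on both strands. The windows of Upk3b (chr5:136038246-136038495, plus strand) and Lrrn4 (chr2:132880863-132881112, minus strand) are shown because these genes varied most alike. Those of Bnc1 (chr7:81992300-81992549, minus strand) and Muc16 (chr9:18674604-18674853, minus strand) are the most unlike in base composition of the 4.
Upk3b: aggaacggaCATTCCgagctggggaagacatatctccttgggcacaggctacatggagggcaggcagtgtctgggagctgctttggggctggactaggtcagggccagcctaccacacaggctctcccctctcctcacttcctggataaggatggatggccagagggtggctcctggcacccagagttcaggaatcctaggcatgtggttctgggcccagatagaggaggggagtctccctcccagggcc
Lrrn4: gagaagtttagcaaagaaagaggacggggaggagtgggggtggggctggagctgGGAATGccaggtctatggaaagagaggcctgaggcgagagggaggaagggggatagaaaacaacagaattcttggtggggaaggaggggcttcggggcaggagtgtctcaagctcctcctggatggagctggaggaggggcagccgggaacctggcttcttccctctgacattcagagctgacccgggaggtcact
Bnc1: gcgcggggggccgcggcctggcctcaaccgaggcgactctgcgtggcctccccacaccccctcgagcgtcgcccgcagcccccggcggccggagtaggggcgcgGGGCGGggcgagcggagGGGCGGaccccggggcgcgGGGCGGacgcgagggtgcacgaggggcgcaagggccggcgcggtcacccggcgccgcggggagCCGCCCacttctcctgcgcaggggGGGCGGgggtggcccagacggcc
Muc16: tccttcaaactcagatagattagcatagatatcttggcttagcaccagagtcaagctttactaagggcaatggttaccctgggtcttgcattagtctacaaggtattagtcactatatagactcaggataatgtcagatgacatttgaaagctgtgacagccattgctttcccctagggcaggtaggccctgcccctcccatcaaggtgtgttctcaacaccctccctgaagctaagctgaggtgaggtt

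The Upk3b and Lrrn4 windows each held 1 TEAD match, from 241 to 236 bases before the start in Upk3b (on the opposite strand, read as CATTCC) and from 196 to 191 bases before it in Lrrn4. One of the 2 windows listed for Gpm6a held a TEAD match as well, and 12.64% of all 32851 windows of that length in the table did. That Gpm6a window (chr8:54779184-54779433) lies far upstream of the gene start at 54954843 used below. The Bnc1 window held 5 GC boxes and was 83.6% G and C, where the median window of the table was 52.4%, and 32.74% of windows held at least 1 GC box. The second Gpm6a window (chr8:54954478-54954727), close to that gene start, held no TEAD match. It held a TATA match on the opposite strand, from 211 to 206 bases before the start, and 12.37% of windows held a TATA match. None of the 6 windows held the WT1 and EGR1 site, found in 3.059% of all windows, and the Muc16 window held none of the motifs. A match is a description of the letters and not evidence of binding, and the absence of a match says only that these letters are not in this window.

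Measured per kilobase of exon and averaged over the 16 libraries, Upk3b was the most abundant at 81.2 normalized counts per kilobase, followed by Gpm6a at 68.2, Msln at 51.5, Lrrn4 at 38.5, Upk1b at 33.4, Wt1 at 24.0, Muc16 at 10.96 and Bnc1 at 7.96. Upk3b lay at the 67.1 percentile of all genes on that scale and Bnc1 at the 17.8. Per length, the 8 genes thus lay from low to intermediate among the genes of these whole-pancreas libraries. In bulk tissue, fewer cells of a type and less RNA per cell cannot be told apart.

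Mesothelin is a glycoprotein anchored to the cell surface, and Muc16 is the membrane mucin that binds it. Msln (ENSMUSG00000063011.6, chromosome 17, 25748613 to 25754378, minus strand, GRCm38) had 70.7, 108, 55.5 and 104 normalized counts in WT replicates 1 to 4. The MC replicates had 218, 122, 140.5 and 208, and the DMC replicates had 166, 236, 189 and 148. All 8 libraries with floxed Men1 alleles lay above all 4 WT libraries. In DC, Msln had 443 in replicate 1 but 75.5, 152 and 85.8 in the others, so 2 of the 4 lay inside the WT range. Group means were 84.8 ± 25.8 in WT, 172 ± 48.0 in MC, 189 ± 172 in DC and 185 ± 38.2 in DMC (SD, n = 4 each). Msln was 2.03-fold higher in MC than in WT (log2 difference 1.02 ± 0.42, SE, limma adjusted p = 0.323) and 2.21-fold higher in DMC (1.15 ± 0.42, limma adjusted p = 0.272). Neither passed the test over all genes.

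Muc16 (ENSMUSG00000109564.1, chromosome 9, 18495455 to 18674530, minus strand) had 179, 162, 141 and 115 normalized counts in WT. It had 1107, 226, 471 and 207 in DC, where every library lay above the highest WT library. The DMC values of 374, 267, 321 and 260.4 also lay above all of WT. In MC it had 259.8, 200.0, 173 and 156, which overlapped WT. The group means ran from 149 ± 27.3 in WT through 197 ± 45.5 in MC and 306 ± 53.2 in DMC to 503 ± 420.1 in DC (SD, n = 4 each). The difference between DC and WT for Muc16 was the largest of the 8 genes in any comparison, at 1.42 ± 0.39 on the log2 scale (SE, limma adjusted p = 0.157), and without DC replicate 1 it was 0.92.

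Uroplakins are membrane plaque proteins best known from the bladder, and Upk3b and Upk1b are also made by mesothelium. Upk3b (ENSMUSG00000042985.7, chromosome 5, 136038496 to 136046487, plus strand) had 127, 294, 143 and 253 normalized counts in WT and 654, 251, 292 and 172 in DC. In MC it had 249, 187, 206 and 269.9, and in DMC 486, 344, 278 and 382. The DMC libraries lay above all MC libraries but overlapped WT, whose replicates 2 and 4 were the high ones. Its means were 204 ± 81.8 in WT and 342 ± 214 in DC, with 228 ± 37.9 in MC and 373 ± 87.1 in DMC (SD, n = 4 each). Upk1b (ENSMUSG00000049436.5, chromosome 16, 38773184 to 38800328, minus strand), a tetraspanin, had 33.6, 77.8, 30.2 and 61.5 in WT, 257, 53.9, 63.8 and 23.1 in DC, 40.4, 41.3, 34.4 and 68.2 in MC, and 106, 78.5, 70.5 and 76.8 in DMC. Upk1b resembled Upk3b at a lower level, with WT replicates 2 and 4 above WT replicates 1 and 3 and DMC above all of MC. The full order of the replicates within WT, MC and DMC was not the same for both genes. In DC its SD of 106 exceeded its mean of 99.5. The remaining plaque proteins that mark urothelium, Upk1a and Upk3a, reached at most 15.9 and 16.4 normalized counts in any library, and Upk2 was not analysed here.

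Wt1 is a zinc finger transcription factor of mesothelium, gonad and kidney podocytes, and Bnc1 is a zinc finger protein of keratinocytes, germ cells and mesothelium. Wt1 (ENSMUSG00000016458.14, chromosome 2, 105126529 to 105173616, plus strand) had 63.6, 98.5, 84.8 and 109 normalized counts in WT. Its DC values of 373, 148, 181 and 128 and its DMC values of 249.5, 189, 127 and 122 all lay above the WT range. Its MC values of 131, 98.4, 80.9 and 193 overlapped WT. The means were 88.9 ± 19.5 in WT, 126 ± 49.4 in MC, 207 ± 112 in DC and 172 ± 60.1 in DMC (SD, n = 4 each). Of the 8 genes, Wt1 and Muc16 were the 2 with no overlap between DC and WT. Bnc1 (ENSMUSG00000025105.9, chromosome 7, 81966672 to 81992292, minus strand) was the least abundant, with 21.2, 33.5, 24.5 and 24.2 in WT, 82.0, 28.2, 36.5 and 15.4 in DC, 36.8, 23.8, 21.2 and 35.5 in MC, and 66.5, 41.3, 50.9 and 50.3 in DMC. All 4 DMC libraries lay above every WT and every MC library. Its means were 25.8 ± 5.29 in WT and 40.5 ± 29.0 in DC, with 29.3 ± 7.96 in MC and 52.2 ± 10.5 in DMC.

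Lrrn4 is a leucine-rich repeat membrane protein and Gpm6a a proteolipid-family membrane glycoprotein, both first studied in neurons. Lrrn4 (ENSMUSG00000043110.2, chromosome 2, 132868305 to 132880891, minus strand) had 60.1, 143, 66.1 and 146 normalized counts in WT and 413, 117, 139 and 93.5 in DC. It had 88.2, 102, 77.8 and 127 in MC and 232, 136, 141 and 209 in DMC. DMC lay above all of MC and overlapped WT, as for the uroplakins. Its means were 104 ± 47.0 in WT, 98.6 ± 21.2 in MC, 191 ± 149 in DC and 179.6 ± 48.4 in DMC (SD, n = 4 each). Gpm6a (ENSMUSG00000031517.8, chromosome 8, 54954843 to 55060871, plus strand) had 163, 168, 106 and 199.8 in WT, 518, 229.8, 191 and 128 in DC, 196, 154, 237 and 222 in MC, and 262, 253, 205 and 277 in DMC. Its DMC libraries lay above all of WT, and its MC libraries overlapped both groups. Its means were 159 ± 39.0, 267 ± 173, 202 ± 36.2 and 249 ± 31.1 for WT, DC, MC and DMC. The annotation places 5 further transcripts, of no assigned class, on the same strand within Gpm6a and a pseudogene on the opposite strand across the start of Bnc1. None of these is in the table, and whether reads were counted by strand is not given in the sources used here.

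**Figure D1:**
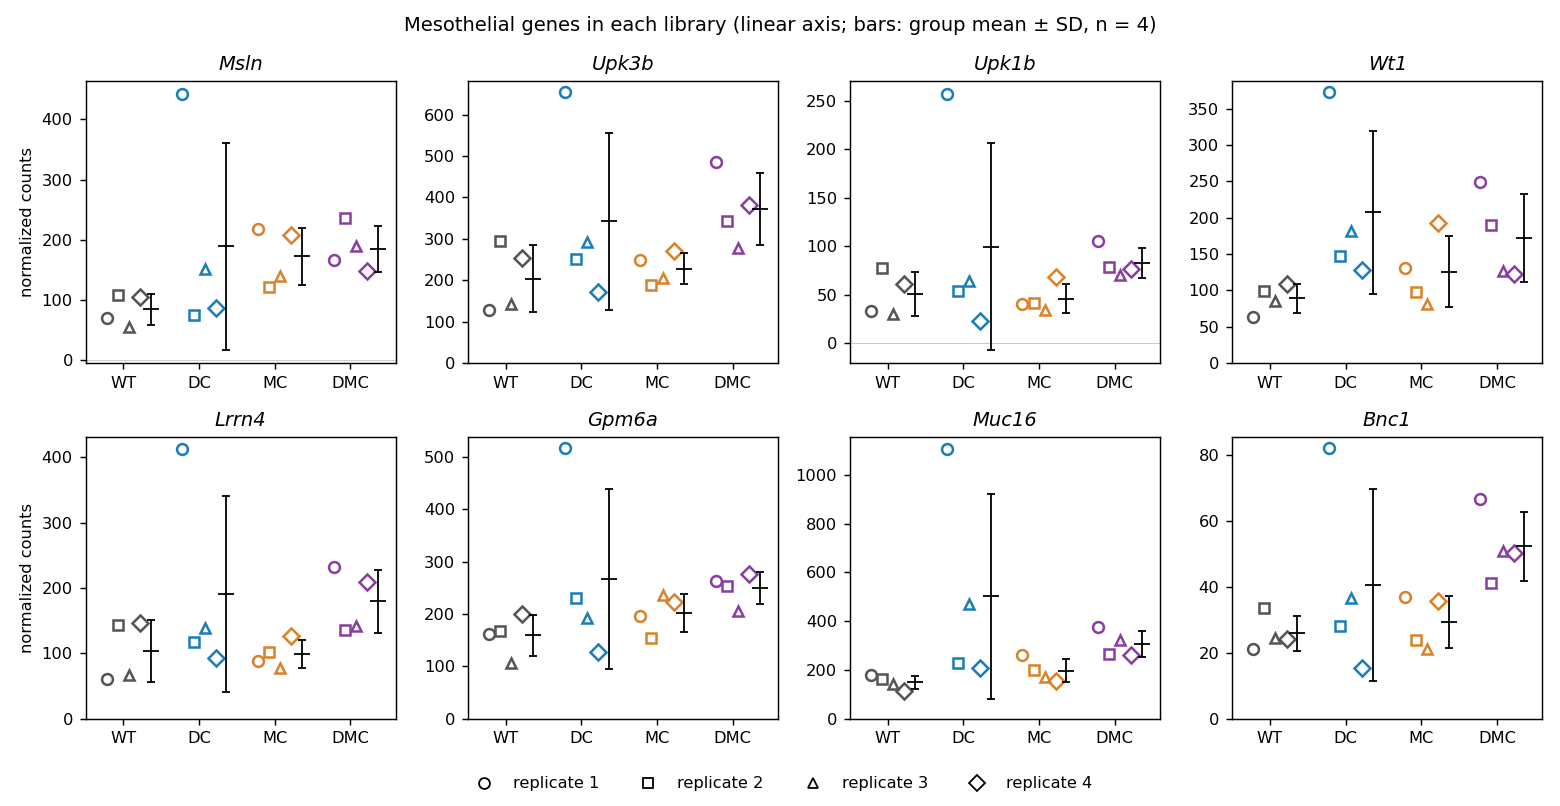
Normalized counts of the 8 mesothelial genes (vertical axes, 1 panel per gene) in each library, by genotype group on the horizontal axis; points are libraries and bars show the group mean with its SD. DC replicate 1 is the highest point in all 8 panels, and the DMC points lie above every WT point for Msln, Wt1, Gpm6a, Muc16 and Bnc1.

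Mice with both floxed genes were set against wild type in DMC against WT, where the 8 mesothelial genes lay higher as a group. The log2 differences were positive for all 8, from 0.67 (Gpm6a) to 1.15 (Msln), with a median of 0.92 against -0.018 over all 14220 genes tested. None passed the test after adjustment over all genes, where 0.788% of genes did (limma adjusted p from 0.272 for Msln to 0.558 for Upk1b). Unadjusted, 7 of the 8 had a p under 0.05, as had 1784 of the 14220 genes. In 5 of the 8 (Msln, Wt1, Gpm6a, Muc16 and Bnc1) every DMC library lay above every WT library, which held for 5.19% of all genes. The 8 values come from the same 8 libraries and vary together, so they are not 8 separate observations. For Bnc1 the 95% interval of the log2 difference ran from 0.18 to 1.79 around 0.99. Upk3b was 1.90-fold higher (0.93 ± 0.34, SE, limma adjusted p = 0.274) and Muc16 2.05-fold higher (1.03 ± 0.39, limma adjusted p = 0.275). Without DC replicate 1, which enters here only through the shared estimate of spread, the smallest limma adjusted p was 0.0514, for Muc16, and over all alternatives the smallest ran from 0.0514 to 0.422.

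DMC against MC asks what the floxed Daxx alleles added where Men1 was floxed already. All 8 genes again had positive log2 differences, from 0.12 (Msln) to 0.86 (Upk1b), with a median of 0.67 against 0.0057 over all genes. None passed the test, where 0.00703% of genes did (limma adjusted p from 0.879 to 0.995). Unadjusted, 1 of the 8, Bnc1, had a p under 0.05, as had 792 of the 14220 genes. For 5 of the 8 (Upk3b, Upk1b, Lrrn4, Muc16 and Bnc1) the groups did not overlap, as for 2.14% of all genes in that direction. Upk1b was 1.82-fold higher in DMC (95% interval of the log2 difference from -0.24 to 1.97) and Lrrn4 1.79-fold higher (from -0.014 to 1.70). Msln, with a log2 difference of 0.12 and an interval from -0.78 to 1.02, was the gene with the smallest difference, and its sign turned when MC replicate 2 (-0.027) or DMC replicate 2 (-0.0022) was left out. DMC against WT and DMC against MC share the DMC libraries.

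Mice with floxed Daxx alone were set against wild type (DC against WT). The differences of all 8 genes were positive, from 0.40 (Bnc1) to 1.42 (Muc16), with a median of 0.69 against -0.015 over all genes, and none passed the test (limma adjusted p from 0.157 to 0.759), where 0.0211% of genes did. The 2 genes without overlap, Muc16 and Wt1, were also the 2 with an unadjusted p under 0.05. Of the 14220 genes, 1665 had an unadjusted p under 0.05, and 3.72% had no overlap in that direction. Wt1 was 2.15-fold higher in DC (1.11 ± 0.34 on the log2 scale, SE, limma adjusted p = 0.217), and 1.72-fold higher without DC replicate 1. Without DC replicate 1 the median difference was 0.27, Msln, Upk3b, Lrrn4 and Gpm6a lay between 0.19 and 0.28, and Upk1b (-0.12) and Bnc1 (-0.015) turned negative. With DESeq2 on the recovered reads, Muc16 (1.76, DESeq2 adjusted p = 0.00476) and Wt1 (1.22, DESeq2 adjusted p = 0.0458) did pass. So did 283 of the 14220 genes with that tool. Over all alternatives the smallest adjusted p of the 8 ran from 0.00476 to 0.371.

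For floxed Men1 alone (MC against WT), Msln had the largest log2 difference of the 8, at 1.02. It was the 1 gene of the 8 with no overlap, which held for 4.16% of all genes in that direction. It was also the 1 with an unadjusted p under 0.05, as had 1813 of the 14220 genes, a similar share. None of the 8 passed the test, where 0.781% of genes did (limma adjusted p from 0.323 to 0.989). The median log2 difference was 0.30. Wt1 was higher by 0.45, Muc16 by 0.39, Gpm6a by 0.36, Upk3b by 0.23, Bnc1 by 0.16 and Lrrn4 by 0.023, and Upk1b had -0.077. The signs of Lrrn4, Upk1b and Bnc1 changed under at least 1 other setting.

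**Figure D2:**
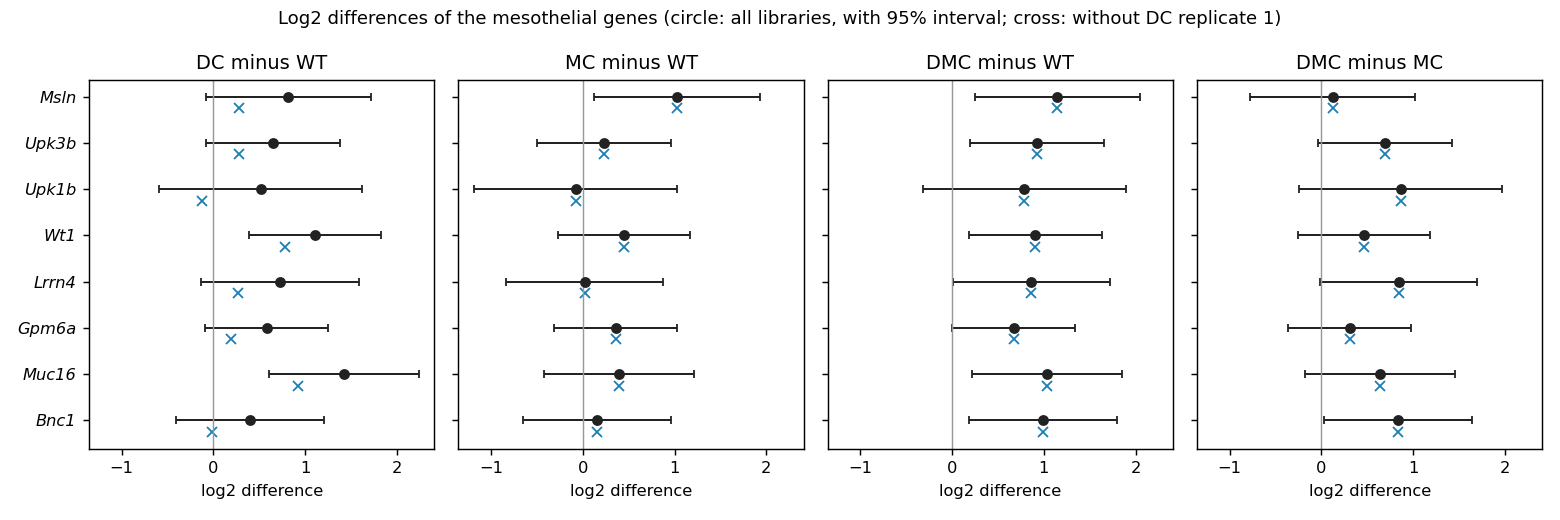
Log2 differences of the 8 mesothelial genes (horizontal axis) in 4 comparisons, 1 per panel, with 95% intervals from limma as bars and crosses for the values without DC replicate 1. In DMC against WT 7 of the 8 intervals lie above 0, and in MC against WT only that of Msln does, although no gene passed the test over all genes.

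MC against DC and DMC against DC contrast the same libraries with a group that DC replicate 1 dominates. In MC against DC 7 of the 8 differences were negative (median -0.50), with Muc16 at -1.03 ± 0.39 (SE, limma adjusted p = 0.233), and none passed where 1.37% of genes did. The positive one was Msln, at 0.21. Without DC replicate 1 the median was 0.0012, Muc16 was at -0.53, and Msln was at 0.74. In DMC against DC 6 of the 8 were positive (median 0.21), Muc16 (-0.39) and Wt1 (-0.20) being the others, and none passed where 0.534% of genes did. That median was 0.62 without DC replicate 1, when all 8 were positive, but -0.15 without DC replicate 4, -0.095 with edgeR and -0.096 with DESeq2, so its direction changed with the tool and with the library left out. Under another tool, DESeq2, Muc16 passed in MC against DC, where 500 of the 14220 genes did. With library quality weights in limma, Msln and Bnc1 passed in DMC against DC, where 1655 of the 14220 genes did. The interaction, which asks whether the difference made by 1 floxed gene depends on the other, passed for none of the 8 genes and for 0% of all genes (limma adjusted p of the 8 from 0.766 to 0.991). Unadjusted, 0 of the 8 and 1156 of the 14220 genes had a p under 0.05 there. No pair of neighbouring groups in the order of means passed the test for any of the 8 genes.

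The labels used here do not give the sex of the animals. With the Y-linked level as a covariate, a setting chosen after seeing the data, the median log2 difference of the 8 genes was 0.77 in DC against WT, 0.30 in MC against WT and 0.91 in DMC against WT, and no gene passed the test.

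The 8 genes varied together from library to library. Over the 16 libraries the 28 pairwise Pearson correlations of log2 values ran from 0.69 (Msln with Lrrn4) to 0.95 (Upk3b with Lrrn4), with a median of 0.78. All come from the same libraries and size factors and are given as a description. Without DC replicate 1 they ran from 0.40 (Gpm6a with Muc16) to 0.93, with a median of 0.65, and with group means removed from 0.56 to 0.95. Upk3b, Lrrn4 and Upk1b formed the closest trio, with 0.93 for each pair that includes Upk1b. Against the mean of the other 7, Upk3b had the highest correlation (0.95, and 0.95 without DC replicate 1) and Muc16 the lowest (0.79, and 0.58).

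A summed level, the mean over the 8 genes of the log2 value centred on its own mean, gave the order of the libraries. DC replicate 1 was at 1.63. The 4 DMC libraries followed closely together at 0.71, 0.36, 0.23 and 0.34 for replicates 1 to 4, ranking 2, 3, 6 and 4 of 16. DC replicate 3 was at 0.24, and DC replicates 2 and 4 were at -0.15 and -0.63. The MC libraries lay at -0.040, -0.38, -0.43 and 0.12, and the WT libraries at -0.79, -0.11, -0.86 and -0.25. The DMC group was thus the most even (SD 0.21), DC the least (SD 0.97), and no DMC library overlapped the WT or MC libraries on this level.

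Ratios between the genes do not depend on the size factor, and were chosen after the values had been seen. Msln over Upk3b was 0.653 to 0.877 in MC and 0.369 to 0.556 in WT, with no overlap. In DMC it spanned 0.341 to 0.687 and in DC 0.301 to 0.676, both overlapping WT. Wt1 over Upk3b ranged from 0.570 to 0.744 in DC, against 0.335 to 0.594 in WT. Lrrn4 over Upk3b stayed between 0.355 and 0.631 in all 16 libraries, whereas Muc16 over Upk3b spanned 0.457 to 1.69, so the proportions of the 8 transcripts were not fixed.

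Genes outside the 8 that followed the level most closely were looked for among the 11536 genes whose mean was at least 50 normalized counts. The median correlation of those genes with the level was -0.090 and 19 exceeded 0.9. The 5 highest were Ptgis, prostacyclin synthase (0.95), Msrb3, a methionine sulfoxide reductase (0.95), Adgrd1, an adhesion G protein-coupled receptor (0.95), Ildr2 (0.94) and Rspo1, a secreted enhancer of Wnt signalling (0.94). With group means removed, the 5 highest were Rspo1 (0.98), Ildr2 (0.97), Dab2, an endocytic adaptor (0.96), Dpysl3 (0.95) and Sulf2, a heparan sulfate sulfatase (0.95). Ildr2 and Rspo1 are also in the list of other mesothelial genes described next. Ptgis had 117 ± 38.0 in WT and 210.4 ± 135 in DC, with 149.8 ± 35.2 in MC and 225 ± 63.2 in DMC (SD, n = 4 each).

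Another 14 genes known from mesothelium followed the 8 from library to library, with no gene of theirs past the test in any comparison. Their mean level correlated at 0.96 with that of the 8 over the 16 libraries, and at 0.94 without DC replicate 1. Like the 8, these 14 were chosen with earlier results of these data known, so the likeness is given as a description. All 14 had a positive log2 difference in DMC against WT (median 0.88, 8 with an unadjusted p under 0.05) and in DMC against MC (median 0.56). In DC against WT 13 were positive (median 0.47), but without DC replicate 1 only 6 were (median -0.0064). In MC against WT 10 were positive (median 0.20). Efemp1, a matrix protein and the most abundant, had 641 ± 151 in WT, 795 ± 190.3 in MC, 1266 ± 619 in DC and 968 ± 216 in DMC (SD, n = 4 each). Pkhd1l1, a large receptor-like protein, had 535 ± 127 in WT and 1121 ± 1051 in DC, with 565 ± 108 in MC and 899.6 ± 392 in DMC. In DC it had 2688 in replicate 1 but 640, 718 and 438 in the others.

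**Figure D3:**
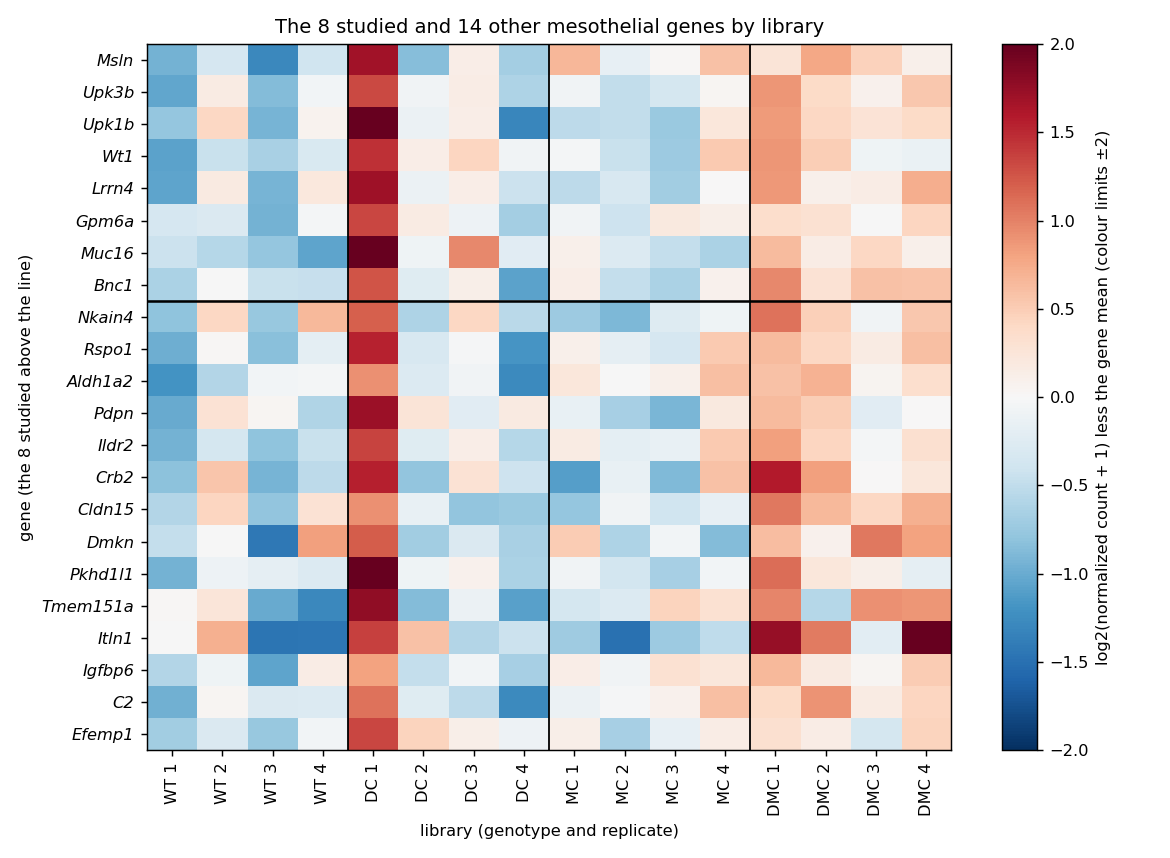
Centred log2 values of the 8 mesothelial genes (above the line) and 14 other mesothelial genes (rows) in the 16 libraries (columns, by group); the colour scale gives the difference from the gene's mean over all libraries. DC replicate 1 is high in all 8 rows above the line, and the DMC columns are mostly above the mean.

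Genes related in sequence or action to the 8 differed among themselves in how they varied with them. Of 15 such relatives 10 were tested and none passed in any comparison, while Upk2, Upk3bl and Mslnl were not analysed here. Without DC replicate 1, Egr1, a zinc finger transcription factor, passed in MC against DC (1.65, limma adjusted p = 0.0374). Positive differences were found in 8 of the 10 in DMC against WT (median 0.55), 6 in MC against WT (0.28) and 5 in DC against WT (0.17), and the level of the list correlated with that of the 8 at 0.51 (0.52 without DC replicate 1). Lrrn4cl, named after its values were seen, had the mean values 158 (WT), 228 (DC), 189 (MC) and 254 (DMC) and a correlation of 0.71. Muc1, a membrane mucin of duct and acinar cells and the most abundant relative, had a correlation with the level of -0.48. Lrrn1 (401 in WT, 297 in MC, 555 in DC and 614 in DMC) had one of 0.10. Bnc2, a relative of Bnc1 that is known from fibroblasts, correlated at 0.78, and was chosen after its values were seen. It had 76.9 in WT and 157 in DC, with 151 in MC and 160 in DMC.

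Genes of the transition from mesothelium to mesenchyme (13 tested) and of retinoic acid metabolism (10 tested of 14), a pathway active in mesothelium through Aldh1a2, likewise had none past the test. Transition genes were positive in 12 of 13 in DC against WT (median 0.49, and 10 with a median of 0.25 without DC replicate 1). They were positive in 11 of 13 in DMC against WT (median 0.20) and in 9 of 13 in MC against WT (median 0.34). Fn1, fibronectin, had 2777 in WT, 4279 in MC, 5491 in DC and 4133 in DMC (limma adjusted p = 0.236 for DC against WT), and Vim, vimentin, had 1781, 2301, 2958 and 2311 in that order. Their mean level correlated with that of the 8 at 0.75 over 16 libraries and 0.50 without DC replicate 1. Retinoic acid genes were positive in 8 of 10 in DMC against WT (median 0.59) and in 8 of 10 in MC against WT (median 0.53). In DC against WT 9 of 10 were positive (median 0.32, and 7 with a median of 0.13 without DC replicate 1). The level of the retinoic acid list correlated with that of the 8 at 0.79, and at 0.69 without DC replicate 1. Its 2 most abundant genes, Aldh1a1 and Dhrs3, did not follow the level of the 8 (correlations of 0.03 and -0.16).

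Markers of the other cells that a pancreas sample could hold were set beside the level of the 8 genes. All 10 fibroblast and stellate cell markers were in the table, and their sum ranged over 23057 to 27271 normalized counts (WT), 34610 to 68405 (DC), 30486 to 51114 (MC) and 23391 to 39569 (DMC). Their mean level correlated with that of the 8 at 0.72, and at 0.51 without DC replicate 1. The 6 acinar markers ran the other way, at -0.72 and -0.58. Their sums were 4274490 to 8212480 (WT), 2146090 to 4867020 (DC), 2477920 to 4878270 (MC) and 2539910 to 5166630 (DMC). Smooth muscle (0.48), adipocyte (0.47), endothelial (0.47), islet (0.58) and neuronal and glial markers (0.57) had intermediate correlations. Lymphoid (-0.071) and spleen markers (-0.059) had ones near 0. Without DC replicate 1, neuronal and glial (0.61), smooth muscle (0.55) and islet markers (0.54) were slightly above the fibroblast markers. Adipocyte (0.27) and endothelial markers (0.17) were below them, as were lymphoid (-0.034) and spleen markers (-0.17). DMC replicate 1, the second highest library for the 8 genes, had the highest smooth muscle and adipocyte levels of all. The part of these cell types in the differences between groups was not tested.

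**Figure D4:**
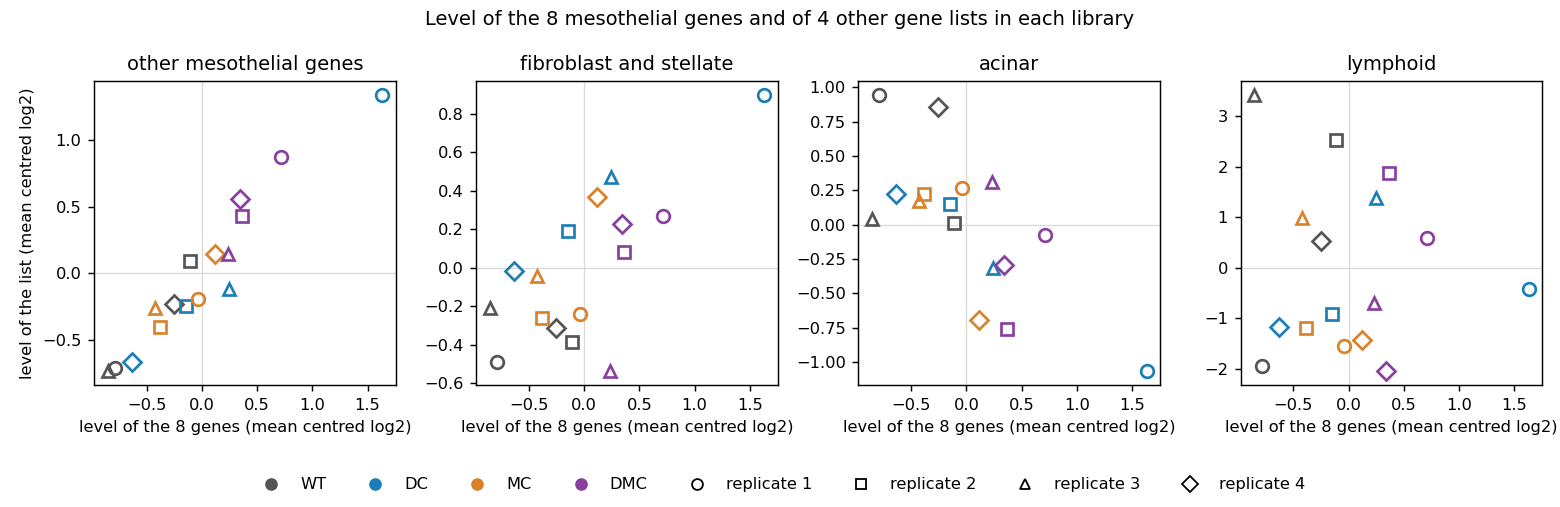
Mean centred log2 level of the 8 mesothelial genes (horizontal axis) against that of other marker lists (vertical axes, 1 panel per list) in the 16 libraries, coloured by genotype group. The other mesothelial genes follow the level of the 8 most closely (r = 0.96), the fibroblast markers less so (0.72), the acinar markers run the opposite way (-0.72), and the lymphoid markers show no trend with it (-0.071).

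Markers of other tissues that make some of the same transcripts differed in level. Of the 3 urothelial markers in the table, Upk1a ranged from 1.59 to 15.9 and Upk3a from 0 to 16.4 normalized counts, while Krt20, a keratin known from gut epithelium too, ranged from 27.5 to 685. Krt20 averaged 391 in MC, 181 in DMC, 136 in WT and 87.9 in DC, and the urothelial level correlated with that of the 8 at 0.25. The squamous markers Krt14 and Trp63 were at most 14.1 and 10.6, too low to be tested. Their level correlated with that of the 8 at 0.68, and at 0.50 without DC replicate 1. The glial marker Sox10 was at most 10.2, and the ovarian marker Amh at most 10.3. The podocyte gene Nphs1 was abundant, at 640.1 to 2067, but with Synpo it had a level correlation of -0.15 with the 8 genes. The 5 gastric gland markers differed by Men1 genotype. They summed to 165 to 366 normalized counts in WT and 67.1 to 607 in DC, but to 2867 to 24979 in MC and 2775 to 26395 in DMC, and all 5 rose in MC against WT, among them Cym, Gkn3 and Gif. Their level correlated with that of the 8 mesothelial genes at 0.31, and at 0.61 without DC replicate 1. Of the ovary and oviduct markers only Star, which moves cholesterol into mitochondria, passed a test, and fell from 74.4 in DC to 26.7 in MC (limma adjusted p = 0.0325).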

How the data were processed

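Libraries were made from total RNA of pancreas with a strand-specific TruSeq total RNA kit, per the labels' protocols. Per the submitters' processing notes, the authors used STAR 2.6.0b, GRCm38 and DESeq2. How reads were counted, with which annotation and whether by strand, is not given in the sources used here. Each deposited signal value is a gene's count over its library's size factor (0.566 to 1.63), as made by the authors. Since every value of a library was a multiple of 1 step, within 0.01 reads, reads could be recovered. Coordinates came from GENCODE release 21 on GRCm38, which lacked 4 of the gene identifiers.

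Genes with at least 10 normalized counts in at least 4 libraries (14220) were tested on log2(normalized count + 1) with limma 3.58.1, with a mean-variance trend and no robust option, in R 4.3.3. Fold changes are on that scale, which understates changes of low genes. All 16 libraries entered a single fit, with 6 contrasts and the interaction, two-sided, Benjamini-Hochberg adjustment over all genes tested and a threshold of 0.05. Alternatives were other pseudocounts, filters, scalings and weights, fits of the compared groups alone, edgeR 4.0.16 and DESeq2 1.42.0 on the recovered reads, the replicate number as a block, and each library left out in turn. A fit without WT replicates 2 and 3 and one with the Y-linked level were chosen after seeing the data. The scripts were tested on simulated data. No library repeated another of its group within sampling noise (chi-square per degree of freedom 8.63 to 132.55).

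The 8 genes and the lists beside them were chosen with earlier results of these data known. Named were the 8 genes, Daxx, Men1, up to 3 genes of a list past the threshold or else up to 2 of its most abundant, and the 5 genes most correlated with the level of the 8, overall and within groups. Other markers, Bnc2, Lrrn4cl and Egr1 are named outside that rule and were chosen after their values were seen. Motifs were searched in the RefSeq promoter table.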

Additional observations from a re-analysis of the deposited data

Results flagged for a closer look

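Lrrn4 in DC had a single library far from the rest. Replicate 1 had 413 normalized counts and the nearest, replicate 3, had 139, a gap of 0.858 of the whole range of the group, which is past Dixon's 95% critical value for 4 libraries. This was the 1 of 32 combinations of gene and group to pass, where chance alone gives about 1 in 20. The other 7 genes were also highest in DC replicate 1, with smaller gaps relative to their range.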

How the results depend on the processing

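None of the 8 genes passed the test in any of the 6 comparisons or the interaction under the main settings, and 2 alternatives changed such a count. With DESeq2, 2 genes passed in DC against WT (Muc16 1.76 and Wt1 1.22 on the log2 scale), where 283 of all 14220 genes did. In MC against DC 1 passed with DESeq2 (Muc16, -1.35), where 500 of all genes did. With library quality weights 2 passed in DMC against DC (Msln 0.96, Bnc1 0.98), where 1655 of all genes did. The cause of these changed counts was not tested. With edgeR and when any single library was left out, the count was 0 in every comparison. The replicate numbers did not pair the libraries: 11 of 24 same-numbered pairs had correlated deviations over 0.1 (from -0.371 to 0.384) and 0 libraries correlated best with their own number. With the replicate block the count was 0 in each comparison.

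In DMC against WT 0 of 240 values of single genes under the alternatives had another sign than the main one, in DC against WT 4, in MC against WT 11, in DMC against MC 2, in MC against DC 8, in DMC against DC 17, and in the interaction 23 of 232. The median of DC against WT lay below that of DMC against WT (0.69 and 0.92), but above it with DESeq2 (0.93 and 0.91), with edgeR (0.913 and 0.894) and without DC replicate 4 (0.997 and 0.917). In DC against WT, Upk1b and Bnc1 turned to -0.093 and -0.018 with library quality weights and to -0.12 and -0.015 without DC replicate 1, with a range over single libraries left out from -0.12 to 1.02 for Upk1b and from -0.015 to 0.76 for Bnc1. With those settings the median was 0.17 and 0.27. In MC against WT, Lrrn4 turned to -0.037 (quantile scaling), -0.18 (quality weights), -0.086 (edgeR) and -0.075 (DESeq2), and was negative without WT replicate 1, WT replicate 3 or MC replicate 4, with a range over single libraries left out from -0.20 to 0.23. Bnc1 turned to -0.074 with quantile scaling, and Upk1b was positive without WT replicate 2, WT replicate 4 or MC replicate 3 (range from -0.28 to 0.16). In DMC against MC, Msln turned to -0.027 without MC replicate 2 and -0.0022 without DMC replicate 2 (range from -0.027 to 0.25). The cause of these changes was not tested. The lowest depth was that of Bnc1, at 12 to 134 reads in a library.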
